A study of Oryza sativa with 3 samples.

Results

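The miR2118 and miR2275 families were followed in small RNA libraries from young rice panicles. Members were taken by name: of 367 mature miRNA sequences in the table of read counts, 12 stood under miR2118 and 1 under miR2275, and all 13 are described here. The panicles came from japonica rice (Oryza sativa) of 3 genotypes, an untreated wild type (WT) and the untreated lodiculeless mutants ld-1 and ld-2, with 1 library for each. The series title places the lesion in the gene for miR172b, and the miR172b sequence had 298 reads in WT, 2 in ld-1 and 1 in ld-2. The sources used here do not give plant age, panicle length or stage, the number of plants pooled, or whether a sample grew in the greenhouse or the field plot. A table of mature miRNAs holds no protein-coding markers, so the labelled tissue could not be checked against any.

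miR2118 is a 22-nt miRNA family. In grass anthers it directs the cutting of long non-coding transcripts before meiosis, and the cut transcripts are copied and diced into phased 21-nt small interfering RNAs (phasiRNAs). miR2275 does the same for a later, meiotic class of 24-nt phasiRNAs. In dicots, relatives of miR2118 cut transcripts of disease resistance genes. In panicles the grass miR2118 is known from developing anthers, so its level in a whole panicle also depends on how much of the sample is anther and at what stage. In such bulk samples a smaller number of anther cells and less miRNA in each of those cells cannot be told apart.

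The sequences are shown because the members differ by few bases, which decides how far their reads can be told apart. They are printed 5′ to 3′ as DNA letters, as in the deposited table, with the seed (bases 2 to 8, which start the pairing with a target) in capitals. Of the 18 miR2118 gene names, 11 shared 5 sequences, and these stand under joined names. The first group below has the seed TCCTGAT, the second TCCCGAT, and the others follow.
miR2118h//miR2118k: tTCCTGATgcctctcattccta
miR2118f//miR2118j//miR2118m: tTCCTGATgcctcccattccta
miR2118d: tTCCTGATgcctcccatgccta
miR2118o: cTCCTGATgcctcccaagccta
miR2118c//miR2118q: tTCCCGATgcctcctattccta
miR2118b//miR2118n: tTCCCGATgcctcccattccta
miR2118p: tTCCCGATgcctcccatgccta
miR2118e//miR2118r: tTCCCAATgcctcccatgccta
miR2118g: tTCCTAATgcctcccattccta
miR2118l: tTCCTAATgcttcccattccta
miR2118i: tTCCTAGTgcctcccattccta
miR2118a: tTCTCGATgcctcccattccta
miR2275d: cTTGTTTTtctccaatatctca

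All 13 sequences were 22 nt long. Within miR2118, 12 of the 22 positions held the same base in every sequence and 10 varied, and the 12 sequences carried 6 seeds. Pairs of miR2118 sequences differed at 1 to 5 positions, with a median of 3 over the 66 pairs. The most abundant sequences, miR2118h//miR2118k and miR2118f//miR2118j//miR2118m, differ by T14C alone (the first base at the 5′ end is position 1). For 11 of the 12 another sequence lay at 1 difference, and the exception was miR2118o, which differs from miR2118h//miR2118k by T1C, T14C, T17A and T18G. The sources used here do not give the mismatches allowed in counting or the treatment of reads that match several sequences. Values of single sequences depend on these rules, and so do the family sum and the shares within it. Of the miR2118 sequences, 11 began with T, whereas miR2118o and miR2275d began with C.

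The libraries held 116818 miRNA reads in WT, 140807 in ld-1 and 66642 in ld-2. Read counts are given as deposited, and levels as scaled RPM (reads over library size times 1000000, after trimmed-mean scaling, TMM), in which a single read equalled 8.37, 7.94 and 13.7. With 1 library per genotype no test between genotypes was possible. Each ratio is given with an exact 95% interval for counting error, which leaves out the variation between plants. Genotype, plant, panicle stage and library preparation cannot be told apart in these data.

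miR2118 as a family stood far higher in ld-2 than in the other libraries, and WT and ld-1 lay close together. The 12 sequences summed to 1292 reads in WT, 1208 in ld-1 and 2880 in ld-2. The ld-2 count was the highest although that library was the shallowest. As scaled levels these were 10814 RPM in WT (95% interval 10232 to 11420), 9592 RPM in ld-1 (9059 to 10149) and 39530 RPM in ld-2 (38099 to 41000). Of all miRNA reads the family took 1.11% in WT (exact binomial 95% bounds 1.05% and 1.17%), a share of 0.858% in ld-1 (0.810% and 0.907%) and of 4.32% in ld-2 (4.17% and 4.48%). The sum was 3.66-fold higher in ld-2 than in WT (log2 1.87, 1.77 to 1.97) and 4.12-fold higher than in ld-1 (log2 2.04, 1.95 to 2.14). Between ld-1 and WT the log2 ratio was -0.17 (-0.29 to -0.06). Without the most abundant sequence, miR2118h//miR2118k, the log2 ratios were 1.87, 2.09 and -0.22 in the same order.

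To be listed, higher or lower, a sequence needed a log2 ratio of 1 or more in size and a 95% interval that left out 0. All 12 miR2118 sequences were listed higher in ld-2 than in WT, where 21.1% of the 109 sequences with at least 30 summed reads were, and 11.3% of the 97 among them outside miR2118. Their median log2 ratio was 1.92, against 0.03 over all 109. All 12 were also listed higher when ld-2 was set against ld-1, where 19.3% of the 109 were (9.28% outside miR2118), with a median of 2.00 against 0.04. None was listed lower in ld-2, where 7.34% of the 109 were against WT and 5.5% against ld-1. Both comparisons use the ld-2 library, so they are not separate evidence. The minimum of 30 reads sums all libraries, and miR2118i and miR2118l reached it only with their ld-2 reads. Some sequences outside the family did so too, so this filter itself favours sequences that are high in ld-2. In 9 of the 12 the whole interval against WT lay above a log2 ratio of 1, and the others were miR2118a, miR2118e//miR2118r and miR2118g. In ld-1 none of the 12 was listed higher than in WT (6.42% of the 109 were) and 1 was listed lower (3.67% were), and the median was -0.13 against -0.06 over all 109. With TMM, 8 of the 12 lay below 0 in ld-1 and 4 above, and of all 109 sequences 56 lay below 0 and 53 above. Under RPM of all miRNA reads or without the 5 most abundant sequences 11 of the 12 lay below 0 and 1 above. The whole interval lay below 0 for 2 of the 12 with TMM, and for 43 of the 109 the interval left out 0 on either side. The whole interval lay below 0 for 5 of the 12 with RPM of all miRNA reads and for 4 without the 5 most abundant sequences. These 2 scalings move every sequence alike, by log2 -0.19 and -0.095 relative to TMM, so the larger counts follow from the scaling.

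**Figure D1:**
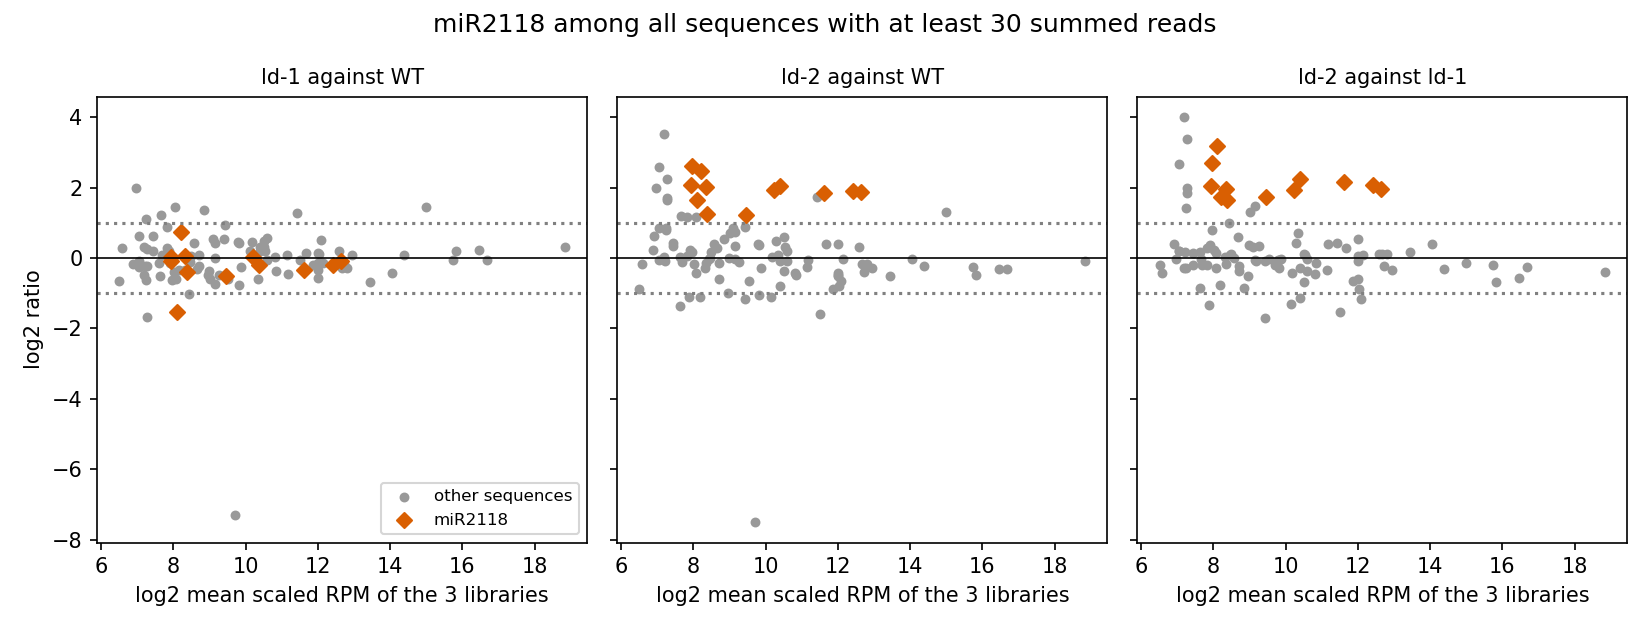
Each point is a sequence with at least 30 summed reads, by its log2 mean scaled RPM over the 3 libraries (horizontal) and its log2 ratio (vertical) in each comparison, with dotted lines at log2 ratios of -1 and 1; a sequence with 0 reads in ld-1 is not drawn in the panels that use ld-1. The 12 miR2118 sequences (diamonds) lie near 0 in ld-1 against WT, with miR2118g lowest at -1.54, and above 1 in both comparisons of ld-2, at low and at high levels alike.

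The sequences with the commonest seed, TCCTGAT, hold most of the family. miR2118h//miR2118k had 409 reads in WT, 408 in ld-1 and 914 in ld-2, or 3423, 3240 and 12545 RPM. It was 3.66-fold higher in ld-2 than in WT (log2 1.87, 1.70 to 2.05), and in ld-1 its interval included 0 (log2 -0.08, -0.28 to 0.12). With TMM scaling the ld-2 library thus stood apart from a pair of nearly equal ones. Of all miRNA reads, miR2118h//miR2118k took 0.350% in WT, 0.290% in ld-1 and 1.37% in ld-2. Among all sequences it ranked 24th by reads in WT and in ld-1 and 9th in ld-2.

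miR2118f//miR2118j//miR2118m, which stands for 3 gene names, had 353, 327 and 799 reads in WT, ld-1 and ld-2, or 2955, 2597 and 10967 RPM. Its log2 ratio to WT was 1.89 in ld-2 (1.71 to 2.08) and -0.19 in ld-1 (-0.41 to 0.03). Its reads were 86.3%, 80.1% and 87.4% of those of miR2118h//miR2118k, so the balance of this pair, told apart by 1 base, was close in the 3 libraries.

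miR2118d had 80, 74 and 201 reads, or 670, 588 and 2759 RPM, and its log2 ratio to WT was 2.04 in ld-2 (1.66 to 2.44). miR2118o, the outlying sequence with C at its 5′ end, had 13, 23 and 44 reads, or 109, 183 and 604 RPM. Its log2 ratio to WT was 2.47 in ld-2 (1.55 to 3.49) and 0.75 in ld-1 (-0.29 to 1.85). The ld-1 ratio of miR2118o was the highest of the family in that comparison, and its interval included 0. Summed, the seed TCCTGAT had 855, 832 and 1958 reads, a log2 ratio to WT of 1.91 in ld-2 (1.79 to 2.03) and of -0.12 in ld-1 (-0.25 to 0.02).

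The seed TCCCGAT was led by miR2118c//miR2118q, with 207 reads in WT, 174 in ld-1 and 454 in ld-2, or 1733, 1382 and 6231 RPM. Its log2 ratio to WT was 1.85 in ld-2 (1.61 to 2.09). In ld-1 it was -0.33 (-0.63 to -0.03), an interval that left out 0 at a ratio too small to be listed. miR2118b//miR2118n differs from it at 1 base and had 73, 78 and 171 reads, with log2 ratios to WT of 1.94 in ld-2 (1.54 to 2.36) and 0.02 in ld-1 (-0.46 to 0.50). The third sequence, miR2118p, had 19, 21 and 47 reads and a log2 ratio to WT of 2.02 in ld-2 (1.22 to 2.87). Summed, this seed had 299, 273 and 672 reads, and its log2 ratio to WT in ld-2, 1.88 (1.68 to 2.08), lay within the interval of the TCCTGAT sum.

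The remaining seeds were rarer, and their ratios spread more widely. miR2118e//miR2118r had 62, 46 and 89 reads in WT, ld-1 and ld-2, or 519, 365 and 1222 RPM, and the lowest ratio of the family in ld-2, 2.35-fold (log2 1.24, 0.75 to 1.73). miR2118a, the only sequence with the seed TCTCGAT, had 29, 23 and 42 reads and was 2.37-fold higher in ld-2 than in WT (log2 1.25, 0.53 to 1.98). Both intervals are wide, and that of miR2118a includes the ratio of the family sum while that of miR2118e//miR2118r lies below it.

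The highest ratio in ld-2 was that of miR2118l, with 11 reads in WT, 11 in ld-1 and 41 in ld-2, or 92.1, 87.3 and 563 RPM. It was 6.11-fold higher in ld-2 than in WT (log2 2.61, 1.63 to 3.72), an interval that includes the family sum. miR2118i had 14, 15 and 36 reads, and its log2 ratio to WT was 2.08 in ld-2 (1.15 to 3.08) and 0.02 in ld-1 (-1.13 to 1.18). For these rare sequences the counts set the precision, and no order among their ratios can be read.

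miR2118g was the only member listed in ld-1 against WT. It had 22 reads in WT, 8 in ld-1 and 42 in ld-2, or 184, 63.5 and 576 RPM. Its log2 ratio to WT was -1.54 in ld-1 (-2.91 to -0.31), the 1 listed lower value noted above, and 1.65 in ld-2 (0.87 to 2.46). Against ld-1 it was 9.07-fold higher in ld-2 (log2 3.18, 2.07 to 4.48), the highest ratio of the family between the mutants. The ld-1 value rests on 8 reads, and with a 99% interval miR2118g was no longer listed in ld-1.

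**Figure D2:**
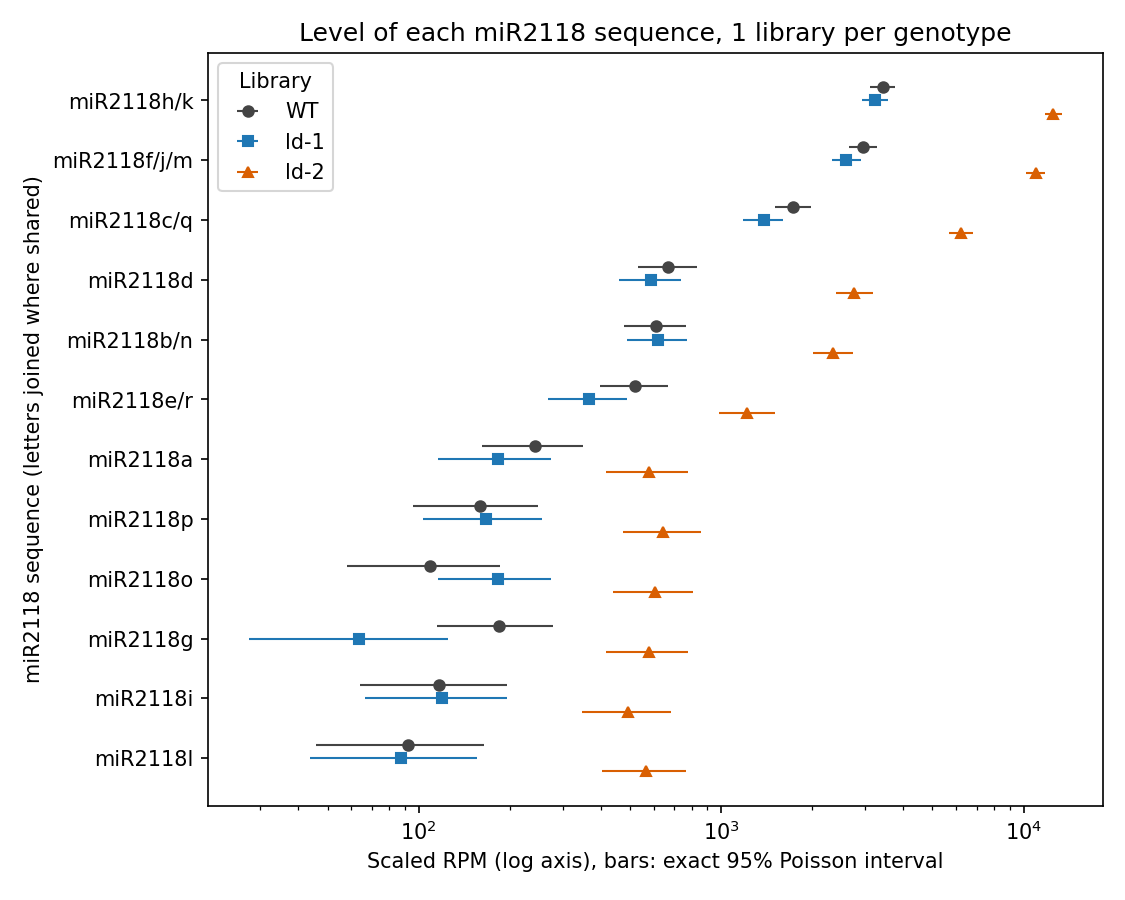
Scaled RPM (horizontal, log axis) of each miR2118 sequence (vertical, most abundant at the top) in WT, ld-1 and ld-2, 1 library each; bars are exact 95% Poisson intervals for counting error. In ld-2 every sequence lies to the right of its WT and ld-1 values, from 494 RPM for miR2118i to 12545 RPM for miR2118h//miR2118k.

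**Figure D3:**
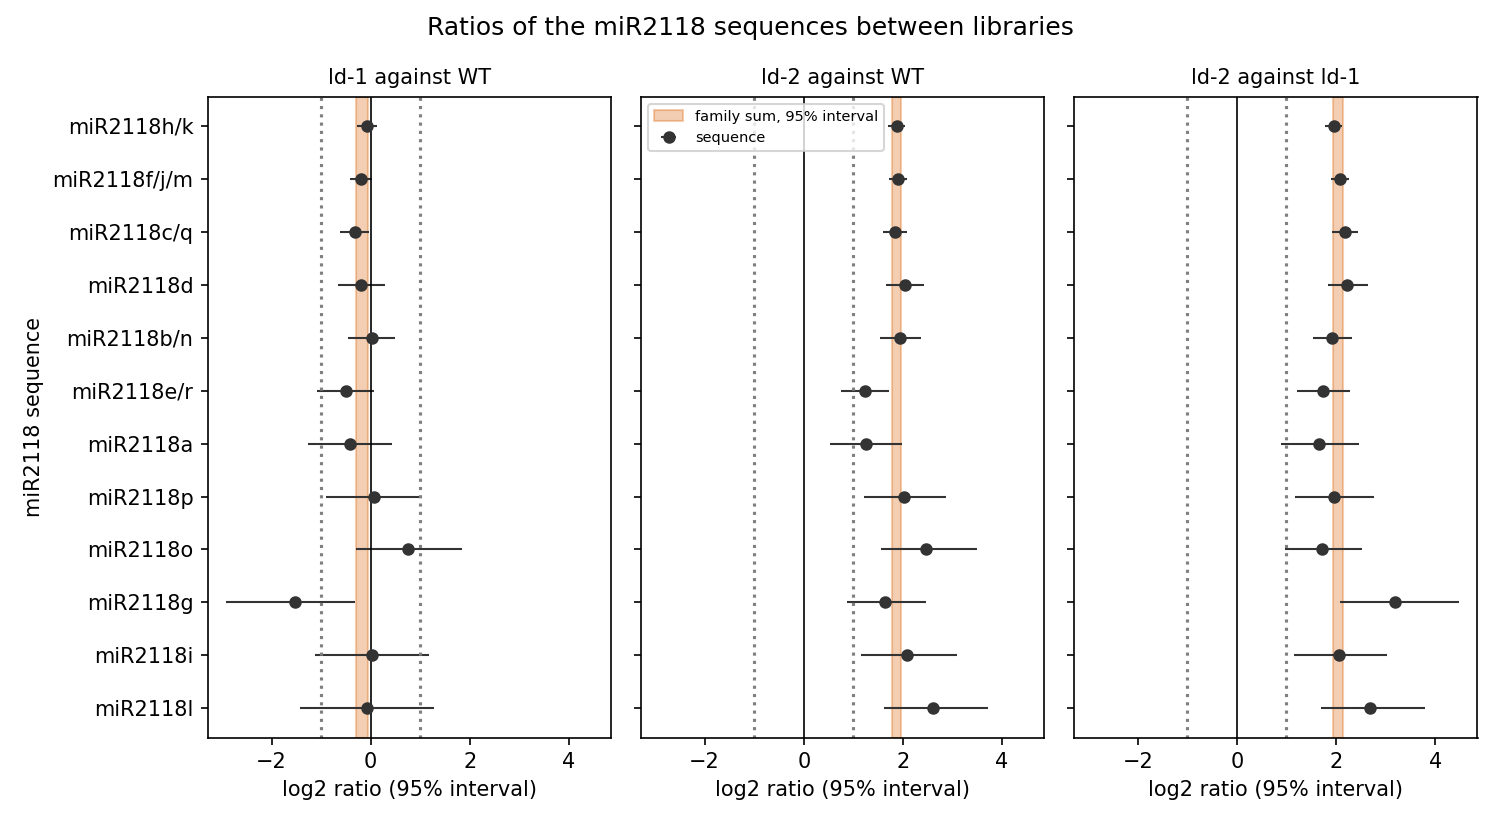
Log2 ratio of each miR2118 sequence (points, with exact 95% intervals) in the 3 comparisons; the shaded band is the interval of the family sum, and dotted lines mark log2 ratios of -1 and 1. Against WT, the points of ld-2 run from 1.24 (miR2118e//miR2118r) to 2.61 (miR2118l), and those of ld-1 lie around 0 except for miR2118g.

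The make-up of the family was then compared, since shares within a family need no scaling between libraries. miR2118h//miR2118k made up 31.7% of the miR2118 reads in WT (exact binomial 95% bounds 29.1% and 34.3%), 33.8% of those in ld-1 (31.1% and 36.5%) and 31.7% of those in ld-2 (30.0% and 33.5%). miR2118f//miR2118j//miR2118m made up 27.3%, 27.1% and 27.7%, and miR2118c//miR2118q 16.0%, 14.4% and 15.8%. Thus the 3 most abundant sequences held 75.0%, 75.2% and 75.2% of the family's reads, a nearly constant part in libraries whose family levels differed by up to 4.12-fold.

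By seed, TCCTGAT took 66.2% in WT (bounds 63.5% and 68.8%), 68.9% in ld-1 (bounds 66.2% and 71.5%) and 68.0% in ld-2 (bounds 66.2% and 69.7%), and TCCCGAT took 23.1%, 22.6% and 23.3%. Sequences under joined names, which stand for 11 of the 18 gene names, held 85.4%, 85.5% and 84.3%. The 6 least abundant sequences together held 8.36% in WT (bounds 6.91% and 10.0%), 8.36% in ld-1 (bounds 6.86% and 10.1%) and 8.75% in ld-2 (bounds 7.74% and 9.84%). These shares overlap between the libraries within counting error.

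**Figure D4:**
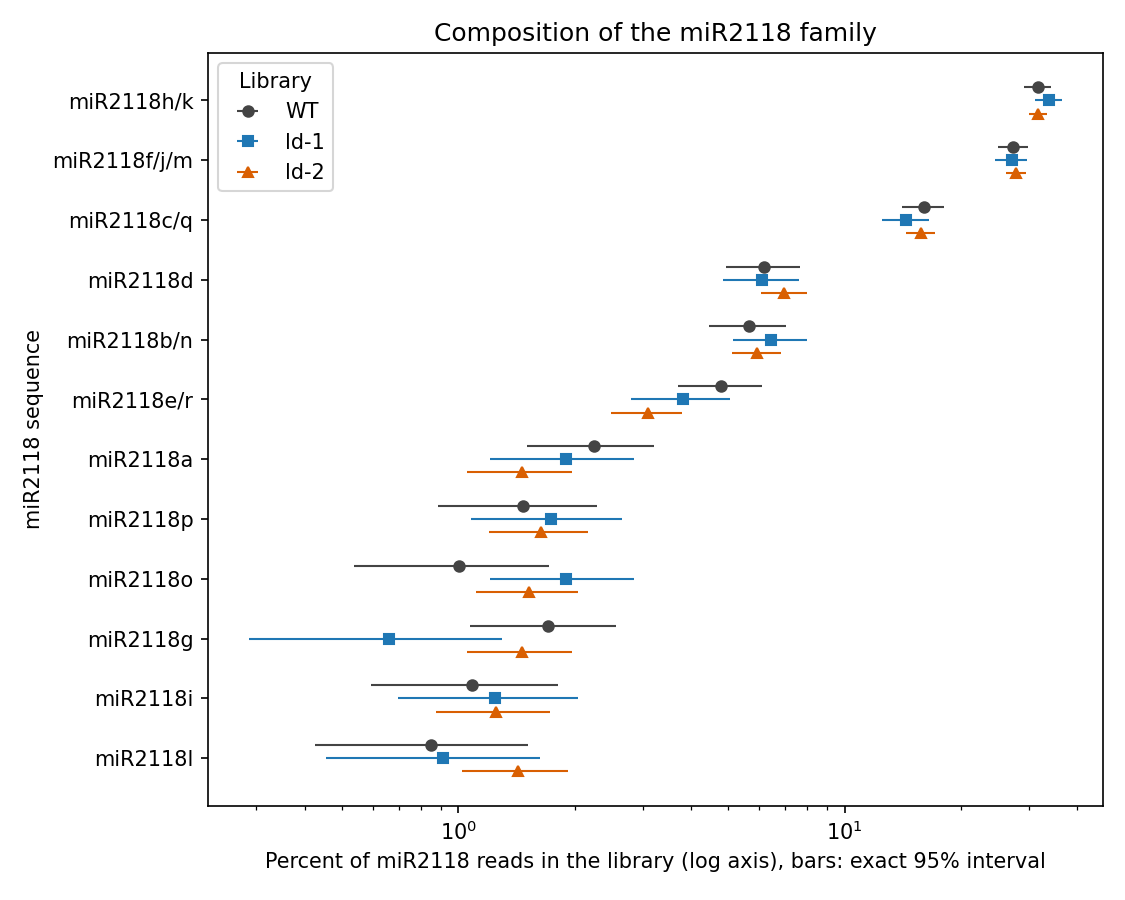
Share of each sequence in the miR2118 reads of a library (horizontal, percent on a log axis) for WT, ld-1 and ld-2; bars are exact 95% binomial intervals. The intervals of the 3 libraries overlap for all 12 sequences, and the lowest point is miR2118g in ld-1 at 0.662%.

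Odds of a read being a given sequence rather than another miR2118 sequence were compared between libraries for the 12 sequences in 3 comparisons, 36 in all, without adjustment for their number. In each comparison 1 of 12 had an exact conditional 95% interval that left out an odds ratio of 1. miR2118e//miR2118r took 4.80% of the family in WT (3.70% to 6.11%) and 3.09% in ld-2 (2.49% to 3.79%), an odds ratio of 0.633 (0.449 to 0.896), which also left out 1 with a 99% interval. Its share in ld-1 was in between, at 3.81% (2.80% to 5.05%).

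miR2118g took 1.70% in WT (bounds 1.07% and 2.57%), 0.662% in ld-1 (bounds 0.286% and 1.30%) and 1.46% in ld-2 (bounds 1.05% and 1.97%). The odds ratio was 0.385 in ld-1 against WT (0.148 to 0.902) and 2.22 in ld-2 against ld-1 (1.03 to 5.49), and neither left out 1 with a 99% interval. For miR2118h//miR2118k the odds ratio in ld-2 against WT was 1.00 (0.870 to 1.16), so a change of its share beyond these bounds was not seen. For miR2118l, with few reads, the bounds were 0.845 and 3.64, and a change within these bounds could not be detected at this depth.

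The effective number of sequences, the inverse Simpson index of how evenly reads are spread, was 4.75 in WT, 4.58 in ld-1 and 4.70 in ld-2. Moving 3.0% of the family's reads between sequences would turn the WT make-up into that of ld-2, and 4.31% into that of ld-1. Counting error alone gives larger values where reads are fewer, and the family had 1208 reads in ld-1 against 2880 in ld-2. The part due to counting error was not computed, so these values do not rank the mutants. Read by base, the 10 variable positions were also alike: at position 14, the base T took 31.7%, 33.8% and 31.7% of the reads, and at position 18, the base G took 13.5%, 13.6% and 13.2%. The 10 variable positions gave 20 base shares in complementary pairs, so they are not 20 separate values. None had an odds ratio whose 95% interval left out 1, in any of the 3 comparisons. Several positions vary in 1 sequence alone, so these shares repeat those of single sequences.

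The order by reads of the 6 most abundant sequences was largely the same. In WT and ld-2 the first 6 were miR2118h//miR2118k, miR2118f//miR2118j//miR2118m, miR2118c//miR2118q, miR2118d, miR2118b//miR2118n and miR2118e//miR2118r. In ld-1, miR2118b//miR2118n (78 reads) stood before miR2118d (74 reads), a pair that did not differ beyond counting error in that library. The reads of the other 6 ran from 11 to 29 in WT, from 8 to 23 in ld-1 and from 36 to 47 in ld-2. Their order differed between libraries: miR2118a had the most of these 6 in WT (29 reads) and miR2118p in ld-2 (47 reads). Their ld-2 levels ran from 494 RPM (346 to 684) for miR2118i to 645 RPM (474 to 858) for miR2118p, intervals that overlap.

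miR2275d, the only miR2275 sequence in the table, had 1 read in WT and 0 in both mutants. By a floor of 3 counts its level was at most 23.8 RPM in ld-1 and 41.2 RPM in ld-2, and by the exact Poisson limit at most 29.3 and 50.6 RPM. In WT the single read equalled 8.37 RPM (0.212 to 46.6). The genotypes could not be compared at this depth.

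The rest of the 22-nt class was compared because the members share that length. Members took 15.0% of all 22-nt reads in WT (bounds 14.2% and 15.8%), 12.04% in ld-1 (bounds 11.4% and 12.7%) and 47.3% in ld-2 (bounds 46.0% and 48.6%). The other 42 sequences of 22 nt summed to 7337, 8823 and 3210 reads, of which miR1859 alone gave 7297, 8795 and 3170. Against WT this sum, set almost entirely by miR1859, had a log2 ratio of -0.48 in ld-2 (-0.54 to -0.42) and of 0.19 in ld-1 (0.15 to 0.23), the latter -0.0034 with RPM of all miRNA reads. The 41 sequences beside miR1859 had 40, 28 and 40 reads. Only 3 of the 42 had at least 30 summed reads: miR1859, miR1846d (11, 18 and 12 reads) and miR1861b//miR1861f//miR1861i//miR1861l (17, 0 and 16 reads). Against WT in ld-2 the last 2 lay above 0, at log2 ratios of 0.84 (-0.47 to 2.16) and 0.63 (-0.45 to 1.70). Both intervals included 0. So 2 of 3 were above 0, with a median of 0.63, but not beyond counting error, and none of the 3 was listed. The miR1861b sequence, with its 0 reads in ld-1, was listed lower in ld-1 against WT and higher in ld-2 against ld-1.

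**Figure D5:**
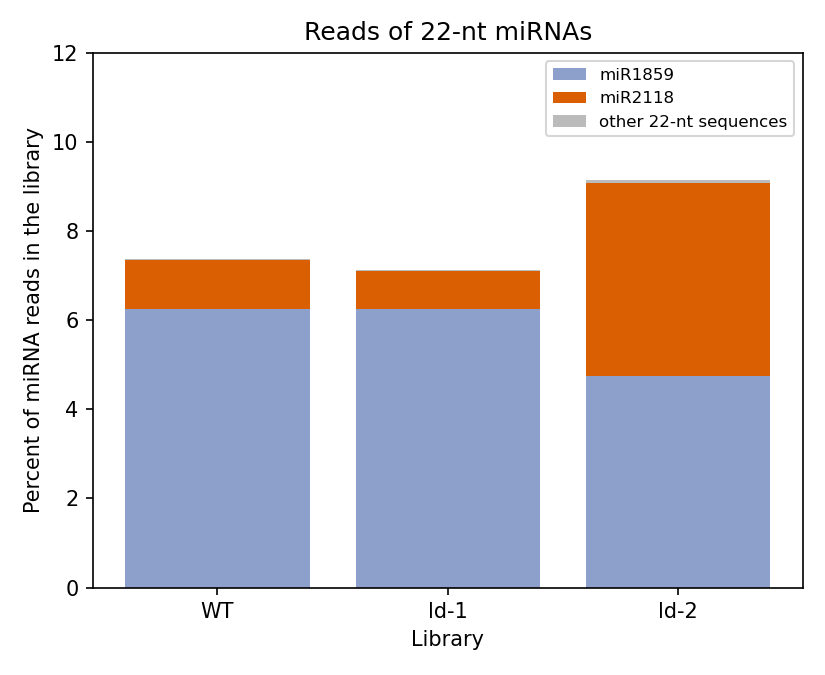
Percent of all miRNA reads in each library that came from 22-nt sequences, divided into miR1859, miR2118 and all others but miR2275d, whose 1 read is not drawn (bars from 0, stacked). miR2118 takes 1.11% in WT, 0.858% in ld-1 and 4.32% in ld-2, while miR1859 takes 6.25%, 6.25% and 4.76%.

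Other miRNAs of the small RNA pathway were compared next, and none was listed. The list held miR162, which targets the dicing enzyme DCL1, miR168, which targets the slicer AGO1, and miR390, which starts the phased small RNAs of TAS3 transcripts, and no sequence in the table stood under miR403 or miR482. The table does not name hairpin arms, and these targets are those of the 21-nt sequences; the 24-nt miR168a and 20-nt miR390 sequences have other letters and need not share them. All 6 of its sequences had 30 summed reads or more, and 0 of 6 were listed in either direction in any of the 3 comparisons. The 24-nt miR168a sequence (81, 61 and 25 reads) came closest in ld-2 against WT, at a log2 ratio of -0.98 (-1.69 to -0.32), and was listed lower with DESeq2 size factors (-1.17) and without the 5 most abundant sequences (-1.19). Their median log2 ratio was -0.36 in ld-1 against WT and -0.22 in ld-2 against WT. The 21-nt miR168a sequence, with 2244, 1762 and 1347 reads, was at -0.42 (-0.52 to -0.33) relative to WT in ld-1 and at -0.02 (-0.12 to 0.08) in ld-2. The miR390 sequence of 21 nt had 975, 1086 and 493 reads and was at 0.08 (-0.05 to 0.21) and -0.27 (-0.43 to -0.11). miR162a had 863, 745 and 467 reads and was at -0.29 (-0.43 to -0.15) and -0.17 (-0.34 to -0.01), and miR162b had 306, 237 and 180 reads and was at -0.44 (-0.70 to -0.20) and -0.05 (-0.33 to 0.22). The 20-nt miR390 sequence had 234, 254 and 107 reads and was at 0.04 (-0.22 to 0.30) and -0.42 (-0.76 to -0.08). All 6 lay below 0 in ld-2 against WT, as did 54 of the 97 sequences outside miR2118, while all 12 miR2118 sequences lay above it. With RPM of all miRNA reads, or with TMM without the miR2118 and miR2275 rows, 4 of the 6 lay below 0.

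The sequences outside the family with the most similar pattern were found by the distance between pairs of log2 ratios to WT (ld-1 and ld-2), over 3 libraries and 96 candidates. The nearest was miR5806, with 11, 10 and 21 reads in WT, ld-1 and ld-2 and a distance of 0.227 from the family sum. miR5793 had 8, 10 and 23 reads (distance 0.557), and miR5797 had 6, 6 and 22 reads (distance 0.725). These 3 were listed higher in ld-2 than in WT, on far fewer reads than the leading miR2118 sequences. Their log2 ratios were 1.65 (0.53 to 2.85), 2.24 (1.03 to 3.61) and 2.59 (1.24 to 4.18). All 3 were chosen for ratios near those of the family sum, and they passed the minimum of summed reads only with their ld-2 reads. Their listing thus follows largely from the choice and the filter, and is not separate evidence. Next by distance were miR2055 (16, 11 and 17 reads, distance 1.16) and miR393b (56, 39 and 56 reads, distance 1.23), whose ratios to WT in ld-2 did not reach 2-fold. Distances of the miR2118 sequences from their own sum ran from 0.0258 for miR2118f//miR2118j//miR2118m to 1.38 for miR2118g.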

How the data were processed

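Small RNA of young panicles was sequenced on an Illumina MiSeq after gel purification and NEXTFlex library preparation, per the labels' protocols. The authors deposited raw read counts per mature miRNA sequence, per the file headers; the sources used here do not give the trimming, mapping, counting rules or annotation release. Groups came from the sample titles, with 1 library per genotype (66642 to 140807 reads).

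Counts were scaled by TMM over the 109 sequences with at least 30 summed reads (edgeR 4.0.16, R 4.3.3; factors 1.02, 0.894 and 1.09 for WT, ld-1 and ld-2). Ratios carry exact 95% Clopper-Pearson intervals on both counts given the scaled sizes, shares exact binomial intervals, levels exact Poisson intervals, and odds ratios exact conditional intervals (Python 3.11.15, numpy 2.4.6, scipy 1.17.1, pandas 2.3.3; plots with matplotlib 3.10.9). Intervals and floors cover counting error only. They treat reads as independent molecules, which reads are not, so they may be too narrow even for that error. The intervals were tested on simulated counts drawn from the count models they assume. Such a check does not reach scaling error or the variation between plants. No p-value was computed. DESeq2 1.42.0 size factors and other settings served as alternatives.

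The members and lists were chosen with earlier results of these data known. Named were all members, the pathway list, miR172b, and the 5 sequences nearest in pattern; the sequences of the 22-nt class were named after their values were seen.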

Additional observations from a re-analysis of the deposited data

Results flagged for a closer look

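The miR2118 sum stood below WT in ld-1 (log2 -0.17) and above it in ld-2 (log2 1.87), opposite signs that drew attention, with a log2 ratio of 2.04 between the mutants. The ld-1 ratio is small: the change from TMM to RPM alone shifts this comparison by -0.19, and the median of all 109 sequences was -0.06. Of single sequences with both intervals leaving out 0, miR2118c//miR2118q (-0.33 and 1.85) had a log2 ratio of 2.17 between the mutants and miR2118g (-1.54 and 1.65) one of 3.18. None of these differences was tested against the variation between plants, since each genotype had 1 library and both ratios share the WT library.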

How the results depend on the processing

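All 12 miR2118 sequences were listed higher in ld-2, against WT and against ld-1, under each scaling tried, at 1.5-fold, with a 99% interval and with no read minimum. At a log2 threshold of 1.5, 10 were against WT and 12 against ld-1. At a minimum of 100 summed reads 6 were tested and 6 were listed in each comparison. Under the other scalings 20 to 23 of all 109 sequences were listed higher in ld-2 against WT, and 21 to 23 against ld-1. How many of all sequences were listed at the other thresholds, interval and read minimums was not computed. The family's log2 ratio in ld-2 against WT was 1.97 with RPM of all miRNA reads, 1.68 with DESeq2 size factors, 1.99 with TMM without the miR2118 and miR2275 rows and 1.66 without the 5 most abundant sequences in the library sizes. Against ld-1 it was 2.33, 1.86, 2.15 and 1.93 in the same order. In ld-1 against WT it was -0.37 with RPM and kept its sign under the other scalings (-0.27 to -0.16). The differences follow from the scalings, which shifted the median of all 109 sequences by up to 0.29 between the mutants.

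miR2118g, the 1 sequence listed lower in ld-1, was listed under each scaling, where 4 or 5 of all 109 were listed lower. In the family 0 were listed with a 99% interval, or at 100 summed reads, where miR2118g was not tested. With a 99% interval the sequences differing in their share of the family were 0 in ld-1 against WT, 1 in ld-2 against WT and 0 in ld-2 against ld-1. With sequences summed by seed they were 0, 1 and 1 of 6. The effective number in WT, ld-1 and ld-2 was 2.02, 1.90 and 1.93 by seed, and 6.33, 6.19 and 6.31 as the exponential of the Shannon entropy. No paired analysis was possible because each genotype had 1 library. Depth limits the 6 rarer sequences, with 8 to 47 reads each, and miR2275d most.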
